A study of Mus musculus with 6 samples.

Results

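The genes described here are 43 targets of the transcription factor p53 and regulators of apoptosis, chosen by symbol for their known roles out of the 24197 genes of a count table, in which all 43 were found. They form 4 classes. The p53 core has 3 genes, the arrest targets (linked to cell-cycle arrest, stress defence and DNA repair) 17, the pro-death class 19 and the survival class 4. The cells were stromal-vascular cells from the inguinal fat of C57BL/6 mice. This fraction remains once the adipocytes are removed and contains adipocyte progenitors. In 3 libraries (called Prdm16) the cells had received a retrovirus carrying Prdm16, a zinc-finger transcription regulator of brown and beige fat, and in 3 libraries (called Puro) a control (puro) retrovirus. Both groups therefore carried a retrovirus and both grew in standard medium. The labels name no promoter for the delivered gene and give no age. The labels do not say whether replicates were grown or collected separately. The p-values therefore describe the spread between these libraries only, which may be technical.

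In cells under DNA damage or other stress, p53 accumulates because its ubiquitin ligase Mdm2 and the related Mdm4 no longer hold it down, and it then switches on genes that stop the cell cycle, repair DNA or start apoptosis. Much of that control acts on the p53 protein, so the messenger RNA of Trp53 and the messenger RNAs of its targets are separate measurements. Apoptosis through mitochondria is governed by the BCL2 family: BH3-only proteins release or activate BAX and BAK, which open the outer mitochondrial membrane, while BCL2, BCL-XL and MCL1 restrain them; released cytochrome c then assembles with APAF1 and caspase 9.

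The Prdm16 libraries held 28169059 to 34349660 counts and the Puro libraries 31866630 to 35798201. Prdm16 itself had 98437, 72525 and 89054 counts in Prdm16 libraries and 14, 22 and 25 in Puro libraries. The progenitor marker Pdgfra was present at 5363 to 6901 counts in Prdm16 libraries and 6394 to 6888 in Puro libraries. CPM stands for counts per 1000000 counts of the TMM-scaled library. The 10 macrophage markers found in the table summed to 10.7 to 11.3 CPM in Prdm16 libraries and 16.3 to 17.2 CPM in Puro libraries. C1qa, C1qb and Emr1 had no count in any library, but Cd14 had 130, 112 and 118 counts in Prdm16 libraries and 285, 317 and 310 in Puro libraries, and Lyz2 had 0, 2 and 1 counts in Prdm16 libraries and 42, 53 and 51 in Puro libraries. Of 4 macrophage markers tested these 2 fell. The other 2 did not pass but were higher in every Prdm16 library, Cd68 (log2 fold change 0.26 ± 0.11) and Mpeg1 (0.31 ± 0.14). The 10 endothelial markers summed to 10.5 to 12.9 CPM in Prdm16 libraries and 5.62 to 5.81 CPM in Puro libraries. Cdh5 and Cldn5 had no count in any library, while Tek was higher (log2 fold change 3.08 ± 0.15) and Vwf and Eng lower (−2.57 ± 0.22 and −1.99 ± 0.24). The summed level of 10 lymphocyte markers was 0.0568 to 0.415 CPM in Prdm16 libraries and 0.0323 to 0.179 CPM in Puro libraries. Further marker lists also moved with the groups. Beside the marker counts, 37.5% of all genes tested rose and 38.0% fell. The 10 adipocyte markers summed to 622 to 729 CPM in Prdm16 libraries and 191 to 206 CPM in Puro libraries. Fabp4 made up most of these sums, at 511, 533 and 609 CPM in Prdm16 libraries and 121, 121 and 104 CPM in Puro libraries. Of 6 adipocyte markers tested 5 rose and 1, Lipe, fell (log2 fold change −0.77 ± 0.07). Plin1, Lep, Retn and Ucp1 were too low to test. The 9 pericyte and smooth muscle markers summed to 230 to 252 CPM in Prdm16 libraries and 432 to 484 CPM in Puro libraries. Of 7 tested 6 fell and 1 rose, with a median log2 fold change of −2.99. The riser Notch3 made up most of the Prdm16 sum, at 214, 191 and 199 CPM, against 120, 120 and 134 CPM in Puro libraries. Acta2 fell to 27.7, 29.8 and 38.8 CPM in Prdm16 libraries, against 258, 280 and 214 CPM in Puro libraries. The 9 progenitor markers summed to 2519 to 2578 CPM in Prdm16 libraries and 3836 to 4265 CPM in Puro libraries. Col1a1 had a log2 fold change of −3.55 ± 0.13. Without Col1a1 the other 8 summed to 2394 to 2411 CPM in Prdm16 libraries and 2231 to 2336 CPM in Puro libraries. Ly6a (1012, 962 and 990 CPM) and Itgb1 (1002, 1043 and 1038 CPM) made up most of this sum in Prdm16 libraries. Of the 9 markers Dpp4 was too low to test, 6 were lower, 1 was higher and 1, Pdgfra, did not pass. The riser was Ly6a (log2 fold change 1.39 ± 0.04). Pdgfrb stood at −1.50 ± 0.03 on the log2 scale, Cd34 at −4.10 ± 0.13 and Thy1, on few counts, at −2.83 ± 0.48. Itgb1 (−0.14 ± 0.04) and Dcn (−0.25 ± 0.09) were lower by less. The 10 mammary epithelium markers summed to 26.7 to 28.2 CPM in Prdm16 libraries and 0.287 to 0.358 CPM in Puro libraries. Of the mammary markers, 4 of 10 were tested and all 4 were higher, each having passed the filter through the Prdm16 libraries alone, while the milk genes Wap and Csn2 had no count and Krt8, Krt5 and Krt14 at most 3 counts in a library. The part of these shifts in the results below was not tested, and in bulk RNA fewer cells of a type and less RNA per cell cannot be told apart.

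More of the p53 and apoptosis genes fell than rose. Of the 43 genes, 24 fell, 14 rose and 5 did not pass in the Prdm16 libraries (edgeR's quasi-likelihood test over 13805 genes, Benjamini-Hochberg adjusted p below 0.05). This is 55.8% lower and 32.6% higher, beside 38.0% lower and 37.5% higher over all genes tested. A fall of at least 2-fold was found for 8 genes, or 18.6%, against a background of 12.1%, and a rise of at least 2-fold for 2 genes, or 4.65%, against 9.69%. A p that misses the threshold does not show that a gene was equal in both groups. The CPM ranges of the groups did not overlap for 38 of the 43 genes (88.4%), against 77.6% of all genes tested. The median log2 fold change, Prdm16 over Puro, was −0.17 for the 43 genes and −0.01 for all genes tested. Both of the 2-fold rises, Bik and Casp1, passed the filter on low counts through the Prdm16 libraries alone and so had to differ; the other 41 genes divided into 24 lower, 12 higher and 5 not passing.

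**Figure D1:**
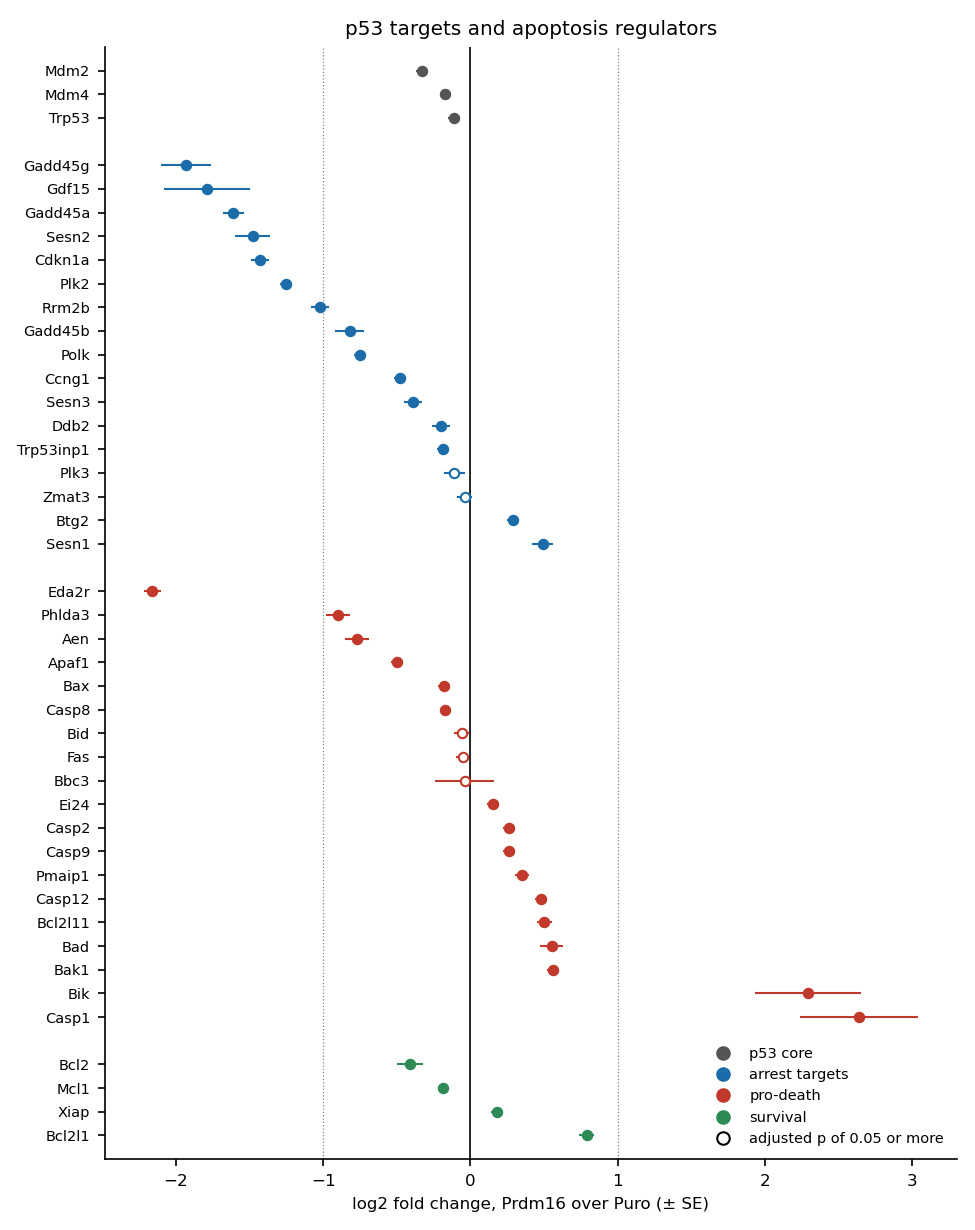
Log2 fold change (Prdm16 over Puro, x axis) ± SE of all 43 genes, grouped and coloured by class; open circles did not pass an adjusted p of 0.05 and dotted lines mark a log2 fold change of 1 in either direction. Of the 17 arrest targets 13 lie left of 0 as filled points, while pro-death and survival genes lie on both sides.

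The classes differed in their make-up. Among the 17 arrest targets 13 fell (76.5%), 2 rose (11.8%) and 2 did not pass, with a median log2 fold change of −0.75. Of the 13, 7 fell by at least 2-fold. Among the 19 pro-death genes 10 rose (52.6%), 6 fell (31.6%) and 3 did not pass, with a median of 0.15. For the 17 that do not include Bik and Casp1 the median was −0.04, with 47.1% higher and 35.3% lower. Over all genes tested 37.5% rose and 38.0% fell. All 3 core genes fell, and the 4 survival genes divided into 2 higher and 2 lower. Summed over its genes, the arrest class had 688 to 690 CPM in Prdm16 libraries and 982 to 1046 CPM in Puro libraries. The pro-death class had 1081 to 1104 CPM in Prdm16 libraries and 1030 to 1046 CPM in Puro libraries. The survival class had 481 to 500 CPM in Prdm16 libraries and 466 to 487 CPM in Puro libraries. The sums of the survival class overlapped between the groups.

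The p53 core moved by small amounts. Trp53 itself was at 136, 129 and 134 CPM in Prdm16 libraries and at 145, 143 and 141 CPM in Puro libraries, a log2 fold change of −0.11 ± 0.04 (SE; adjusted p = 0.0219). The groups were close but did not overlap. The call did not hold in 7 of 15 alternatives, over which the adjusted p ran between 0.00884 and 0.200. The mouse genome also holds a processed Trp53 pseudogene whose reads may be shared. Mdm2, the ubiquitin ligase that p53 both induces and is destroyed by, was at 76.1, 80.4 and 77.3 CPM in Prdm16 libraries and at 97.7, 96.5 and 100 CPM in Puro libraries (log2 fold change −0.33 ± 0.04, adjusted p = 1.34e-05). Every Prdm16 library was below every Puro library for it. Mdm4, which blocks the activation domain of p53, averaged 97.4 ± 4.06 CPM in Prdm16 libraries and 110 ± 4.17 CPM in Puro libraries (SD, n = 3 each; log2 fold change −0.17 ± 0.04, edgeR adjusted p = 0.00443). The ratio of Mdm2 to Trp53, each as CPM per kb of exon, was 0.447 to 0.498 in Prdm16 libraries and 0.537 to 0.565 in Puro libraries.

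Cdkn1a encodes p21, the cyclin-dependent kinase inhibitor through which p53 stops the cell cycle. It had 40.0, 36.9 and 36.2 CPM in Prdm16 libraries and 97.6, 97.6 and 110 CPM in Puro libraries. The groups lay far apart, with a log2 fold change of −1.43 ± 0.06 (adjusted p = 1.88e-09), or 2.70-fold lower. Plk2, a polo-like kinase induced by stress, had 38.2, 39.2 and 39.3 CPM in Prdm16 libraries and 92.8, 89.7 and 94.1 CPM in Puro libraries, or −1.25 ± 0.04 on the log2 scale (adjusted p = 1.71e-10). Its relative Plk3 did not pass, at 13.8, 13.6 and 14.5 CPM in Prdm16 libraries and 14.4, 14.8 and 16.1 CPM in Puro libraries (log2 fold change −0.11 ± 0.07, adjusted p = 0.151). Those ranges overlapped by a single library. Ccng1, cyclin G1, a p53 target that acts on Mdm2, had 111, 107 and 108 CPM in Prdm16 libraries and 150, 147 and 157 CPM in Puro libraries (log2 fold change −0.48 ± 0.04). Btg2, an antiproliferative partner of the deadenylase complex, went the other way: it rose to 48.0, 47.3 and 48.8 CPM in Prdm16 libraries, against 38.6, 38.8 and 40.5 CPM in Puro libraries (log2 fold change 0.29 ± 0.04, adjusted p = 6.49e-05).

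The Gadd45 proteins are small stress sensors that bind p21 and the kinase MTK1, and all 3 of their genes fell, as did 38.0% of all genes tested. Gadd45a was at 16.2, 13.2 and 13.6 CPM in Prdm16 libraries and at 42.1, 44.0 and 45.2 CPM in Puro libraries, a log2 fold change of −1.61 ± 0.07 (adjusted p = 4.74e-09). Gadd45g was at 12.7, 9.22 and 10.3 CPM in Prdm16 libraries and at 34.4, 35.8 and 52.7 CPM in Puro libraries (−1.93 ± 0.17 as log2 fold change, adjusted p = 1.04e-06). Gadd45b was at 38.4, 29.2 and 33.0 CPM in Prdm16 libraries and at 55.4, 55.7 and 67.6 CPM in Puro libraries (log2 fold change −0.82 ± 0.10). For each of the 3 genes Puro replicate 3 was the highest library and Prdm16 replicate 1 the highest of its group, as for Cdkn1a. Without Puro replicate 3 the log2 fold changes were −1.58 for Gadd45a, −1.70 for Gadd45g and −0.72 for Gadd45b. The long noncoding E230016M11Rik, whose exons on the opposite strand overlap 19.1% of those of Gadd45a, averaged 0.443 CPM in Prdm16 libraries and 0.676 CPM in Puro libraries.

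The 250 bases before the RefSeq gene start were searched for the p53 decamer, a single repeat of the consensus that p53 binds as a pair. A single start was used for each gene, and bases before any other start were not searched. The windows are from GRCm38.p6, a later build than the mm9 named for the counts, and were matched by symbol for 37 of the 43 genes. Zmat3, Trp53inp1, Rrm2b, Ddb2, Pmaip1 and Bik had no window. The decamer reads the same on both strands, and it stood in 8 of the 37 windows (21.6%) and in 5.96% of the 10195 windows of tested genes. Of the 8 genes 7 fell (Trp53, Mdm2, Cdkn1a, Ccng1, Gadd45a, Polk and Bax) and 1 rose (Ei24). Of the 29 without a decamer 14 fell, 11 rose and 4 did not pass. Over all genes tested 38.0% fell and 37.5% rose. Most of the 8 genes with a decamer belong to the core and arrest classes, in which most genes fell. The calls of other tested genes with a decamer were not counted, and a link between decamer and direction was not tested. The CCAAT box (CCAAT, either strand) was in 43.2% of the members' windows and 36.6% of all windows. Printed 5′ to 3′, with the decamer in capitals, are Cdkn1a, Gadd45a, Mdm2 and Ccng1, which fell and held one. Ei24, the riser that held one, and Eda2r, which fell most and had none, are set beside them. The decamers began 73 and 51 bases before the start in Cdkn1a, 40 in Gadd45a, 186 in Mdm2, 185 in Ccng1 and 10 in Ei24. A match is a description of the letters and not a site of binding.
Cdkn1a (chr17:29090729-29090978, plus strand): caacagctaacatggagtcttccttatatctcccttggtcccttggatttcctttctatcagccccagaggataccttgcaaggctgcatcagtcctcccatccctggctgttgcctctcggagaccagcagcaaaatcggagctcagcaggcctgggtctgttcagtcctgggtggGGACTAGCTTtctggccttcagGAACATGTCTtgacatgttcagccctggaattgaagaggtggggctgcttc
Gadd45a (chr6:67037408-67037657, minus strand): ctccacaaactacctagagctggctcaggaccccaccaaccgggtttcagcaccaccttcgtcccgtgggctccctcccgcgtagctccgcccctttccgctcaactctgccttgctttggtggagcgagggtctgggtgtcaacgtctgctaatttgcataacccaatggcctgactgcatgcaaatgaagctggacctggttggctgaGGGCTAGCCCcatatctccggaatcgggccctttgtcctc
Mdm2 (chr10:117710759-117711008, minus strand): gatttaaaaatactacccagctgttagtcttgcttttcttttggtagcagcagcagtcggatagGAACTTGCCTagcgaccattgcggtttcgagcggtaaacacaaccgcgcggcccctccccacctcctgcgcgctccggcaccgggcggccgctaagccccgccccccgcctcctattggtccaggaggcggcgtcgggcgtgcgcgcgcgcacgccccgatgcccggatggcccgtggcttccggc
Ccng1 (chr11:40755287-40755536, minus strand): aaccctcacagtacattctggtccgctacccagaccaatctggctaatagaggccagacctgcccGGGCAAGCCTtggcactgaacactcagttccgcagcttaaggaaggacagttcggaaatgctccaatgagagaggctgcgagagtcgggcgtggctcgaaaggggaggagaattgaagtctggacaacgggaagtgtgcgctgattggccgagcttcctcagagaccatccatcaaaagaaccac
Ei24 (chr9:36797335-36797584, minus strand): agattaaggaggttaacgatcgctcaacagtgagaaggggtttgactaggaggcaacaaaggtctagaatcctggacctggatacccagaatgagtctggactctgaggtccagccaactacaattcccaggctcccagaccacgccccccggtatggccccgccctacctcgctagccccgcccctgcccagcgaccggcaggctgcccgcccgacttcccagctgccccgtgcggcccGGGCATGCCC
Eda2r (chrX:97377210-97377459, minus strand): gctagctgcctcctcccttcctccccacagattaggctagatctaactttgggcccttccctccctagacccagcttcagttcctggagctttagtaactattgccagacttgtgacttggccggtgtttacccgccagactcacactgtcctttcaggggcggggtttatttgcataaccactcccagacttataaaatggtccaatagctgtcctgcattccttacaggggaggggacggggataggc

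The sestrins restrain the growth kinase mTORC1 and guard against oxidants, and their 3 genes did not move together. Sesn2 was at 14.3, 11.5 and 12.5 CPM in Prdm16 libraries and at 32.1, 32.5 and 42.8 CPM in Puro libraries, a log2 fold change of −1.48 ± 0.12 (adjusted p = 4.74e-07). Sesn3 was at 42.1, 44.2 and 40.9 CPM in Prdm16 libraries and at 59.5, 56.0 and 51.3 CPM in Puro libraries (log2 fold change −0.39 ± 0.06). In contrast to both, Sesn1 rose to 78.8, 92.8 and 94.8 CPM in Prdm16 libraries, against 64.7, 65.0 and 60.2 CPM in Puro libraries (log2 fold change 0.49 ± 0.07, adjusted p = 4.67e-05). Per kb of exon, Sesn1 was the most abundant sestrin in both groups, at 22.3 CPM per kb in Prdm16 libraries and 15.9 in Puro libraries. Sesn2 was at 3.67 CPM per kb in Prdm16 libraries and 10.3 in Puro libraries, and Sesn3 at 2.78 and 3.64 in that order of groups.

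**Figure D2:**
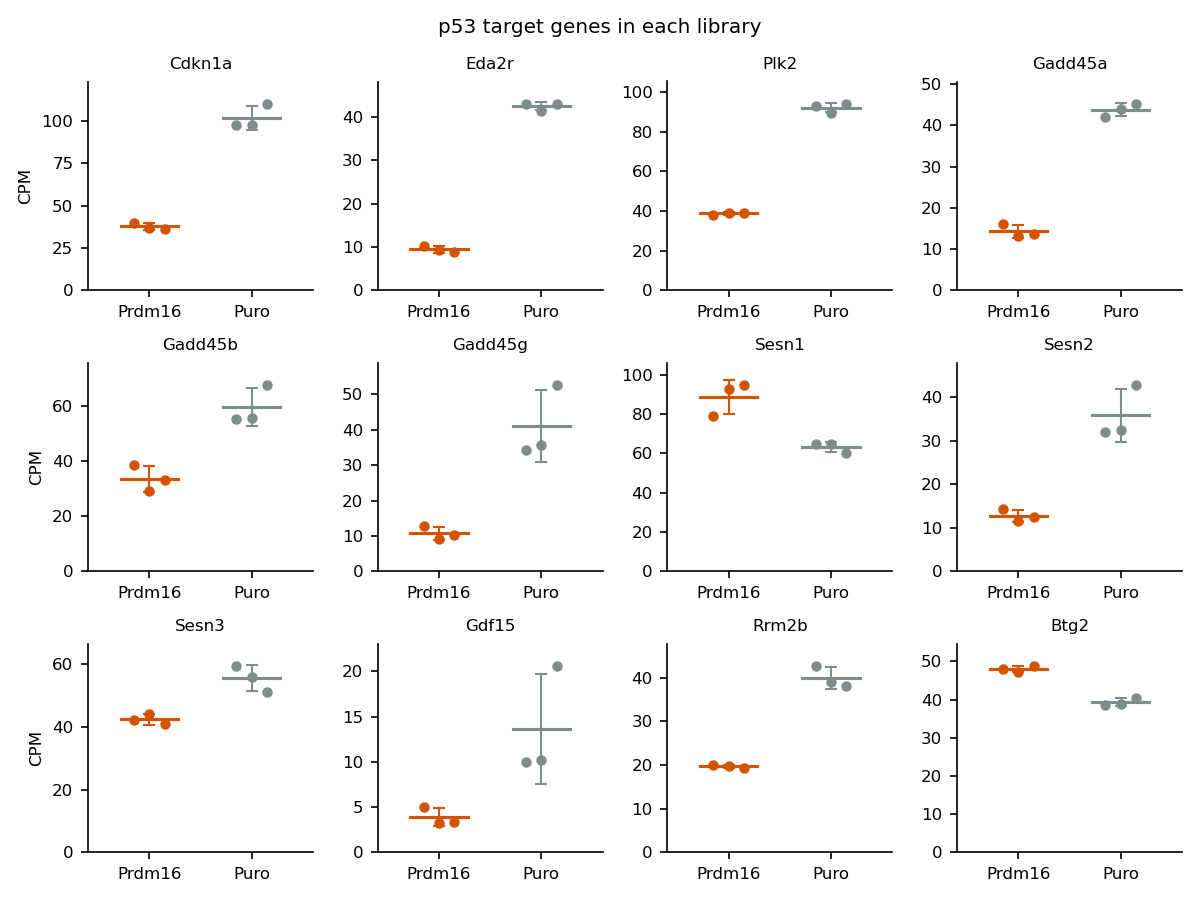
CPM (y axis, from 0) of 12 genes in each of the 3 Prdm16 and 3 Puro libraries. Eda2r is of the pro-death class and the others are of the arrest class. Points are libraries in replicate order, the long bar is the mean and the error bar the SD. Sesn1 and Btg2 are higher in every Prdm16 library than in any Puro library, the other 10 genes are lower, and Puro replicate 3 stands above its group for Gdf15, Gadd45g and Sesn2.

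Gdf15, a secreted stress cytokine of the TGF-beta superfamily, had 5.03, 3.25 and 3.41 CPM in Prdm16 libraries and 9.97, 10.2 and 20.6 CPM in Puro libraries. Its log2 fold change was −1.79 ± 0.29 (adjusted p = 0.000178), the largest SE of the arrest class. Without Puro replicate 3 it was −1.36. Over the 17 arrest targets Puro replicate 3 was the highest Puro library for 11, and Prdm16 replicate 1 the highest Prdm16 library for 8. This was not particular to the arrest targets: over the 19 pro-death genes the same libraries were highest for 11 and 10. Trp53inp1, a nuclear stress protein induced by p53, fell to 102 ± 1.83 CPM in Prdm16 libraries, against 117 ± 6.28 CPM in Puro libraries (SD, n = 3 each; log2 fold change −0.19 ± 0.04, edgeR adjusted p = 0.00262). Zmat3, an RNA-binding zinc-finger protein and p53 target, had 53.7, 60.2 and 54.4 CPM in Prdm16 libraries and 57.2, 57.4 and 58.0 CPM in Puro libraries, and did not pass (log2 fold change −0.04 ± 0.05, adjusted p = 0.478).

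All 3 DNA repair genes fell, as did 38.0% of all genes tested. Rrm2b, the p53-inducible subunit of ribonucleotide reductase, had 703, 569 and 647 counts in Prdm16 libraries and 1324, 1358 and 1281 counts in Puro libraries. Its mean was 19.7 ± 0.293 CPM in Prdm16 libraries and 39.9 ± 2.43 CPM in Puro libraries (SD, n = 3 each), a log2 fold change of −1.02 ± 0.06 (edgeR adjusted p = 2.10e-08). Polk, a polymerase that copies past damaged bases, was at 33.4, 34.2 and 32.6 CPM in Prdm16 libraries and at 57.9, 55.7 and 54.8 CPM in Puro libraries (log2 fold change −0.75 ± 0.04). Ddb2, which recognises ultraviolet damage and is a p53 target in human cells, was at 23.7, 23.9 and 23.0 CPM in Prdm16 libraries and at 27.3, 28.5 and 25.4 CPM in Puro libraries (log2 fold change −0.20 ± 0.06, adjusted p = 0.00688). The exons of Acp2 on the opposite strand cover 23.8% of those of Ddb2, and Acp2 had a log2 fold change of −0.48.

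The pro-death class opened with 4 p53 targets, of which 3 fell. Eda2r, a receptor of the TNF receptor family for the ligand ectodysplasin A2, had 364, 270 and 294 counts in Prdm16 libraries and 1330, 1443 and 1444 counts in Puro libraries. Its mean was 9.49 ± 0.779 CPM in Prdm16 libraries and 42.4 ± 0.924 CPM in Puro libraries (SD, n = 3 each). With a log2 fold change of −2.16 ± 0.06 (adjusted p = 1.24e-10) it had the largest fall of the 43 genes, 4.46-fold. Phlda3, a membrane-binding inhibitor of the kinase Akt, had 32.5, 31.0 and 31.6 CPM in Prdm16 libraries and 55.1, 54.4 and 67.8 CPM in Puro libraries (log2 fold change −0.90 ± 0.08). Aen, a nuclease that fragments DNA and RNA in apoptosis, had 10.7, 10.1 and 8.87 CPM in Prdm16 libraries and 16.3, 16.1 and 18.3 CPM in Puro libraries (log2 fold change −0.77 ± 0.08). Ei24, a protein of the endoplasmic reticulum, was the exception at 128, 127 and 126 CPM in Prdm16 libraries and 120, 113 and 112 CPM in Puro libraries, a small rise (log2 fold change 0.15 ± 0.04, adjusted p = 0.00497). The death receptor Fas did not pass, with 817, 678 and 733 counts in Prdm16 libraries and 734, 853 and 769 counts in Puro libraries (log2 fold change −0.05 ± 0.05, adjusted p = 0.401).

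The effectors that perforate mitochondria moved in opposite directions. Bak1 rose to 97.2, 95.8 and 102 CPM in Prdm16 libraries, against 64.4, 67.9 and 68.1 CPM in Puro libraries (log2 fold change 0.56 ± 0.04, adjusted p = 3.51e-07). Bax fell slightly to 68.1, 62.2 and 67.6 CPM in Prdm16 libraries, against 74.1, 74.4 and 75.3 CPM in Puro libraries (log2 fold change −0.18 ± 0.04, adjusted p = 0.00310). Per kb of exon, Bak1 stood at 40.9 CPM per kb beside 41.9 for Bax in Prdm16 libraries, and at 27.8 beside 47.3 for Bax in Puro libraries. Ggnbp1, which overlaps 25.5% of the exons of Bak1 on the opposite strand, had a log2 fold change of −0.53.

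Among the 6 BH3-only genes 4 rose, Bik among them, and none fell. This is 66.7% higher, beside 37.5% higher and 38.0% lower over all genes tested. Bcl2l11, which encodes BIM, had 82.9, 86.5 and 80.0 CPM in Prdm16 libraries and 62.8, 58.4 and 55.7 CPM in Puro libraries, a log2 fold change of 0.50 ± 0.05 (adjusted p = 4.16e-06). Bad, which binds BCL2 and BCL-XL, had 83.2, 62.7 and 74.9 CPM in Prdm16 libraries and 48.6, 49.6 and 53.3 CPM in Puro libraries (log2 fold change 0.55 ± 0.08, adjusted p = 0.000133). With the median of its chromosome removed, Bad had a log2 fold change of 0.16 and was no longer called. Gpr137 overlaps 20.5% of the exons of Bad on the opposite strand and had a log2 fold change of 0.27. Pmaip1, which encodes NOXA and is a p53 target, had 33.6, 34.5 and 34.7 CPM in Prdm16 libraries and 26.3, 26.9 and 27.5 CPM in Puro libraries (log2 fold change 0.35 ± 0.05). None of these 3 genes overlapped between the groups. The other p53-induced member, Bbc3 or PUMA, did not pass: it had 6.73, 3.97 and 5.12 CPM in Prdm16 libraries and 4.61, 4.79 and 6.94 CPM in Puro libraries (log2 fold change −0.04 ± 0.20, adjusted p = 0.879). Bid, cut by caspase 8 to link death receptors to mitochondria, had 73.9, 74.7 and 83.7 CPM in Prdm16 libraries and 81.3, 82.9 and 77.4 CPM in Puro libraries and did not pass either (log2 fold change −0.06 ± 0.05, adjusted p = 0.347). Bcl2l13 overlaps 17.7% of the exons of Bid on the opposite strand and had a log2 fold change of 0.34. Bik was read from few counts, 16, 18 and 20 in Prdm16 libraries and 3, 5 and 3 in Puro libraries, and its log2 fold change of 2.29 ± 0.36 had to be positive for it to be tested.

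Of the 5 caspase genes 4 rose, Casp1 among them, while Apaf1, the scaffold of the apoptosome, fell. Over these 6 genes 66.7% rose and 33.3% fell, beside 37.5% and 38.0% of all genes tested. Apaf1 was at 68.0, 73.5 and 68.0 CPM in Prdm16 libraries and at 101, 97.1 and 98.1 CPM in Puro libraries (log2 fold change −0.50 ± 0.04, adjusted p = 1.04e-06). Its partner Casp9, the initiator of the mitochondrial route, was at 79.3, 77.5 and 78.8 CPM in Prdm16 libraries and at 66.9, 62.7 and 67.3 CPM in Puro libraries (log2 fold change 0.26 ± 0.04). Casp12, a caspase of the endoplasmic reticulum in mice, rose to 153, 149 and 150 CPM in Prdm16 libraries, against 110, 109 and 105 CPM in Puro libraries (log2 fold change 0.48 ± 0.04, adjusted p = 3.19e-07). Casp2, an initiator activated in the PIDDosome, averaged 93.3 ± 2.79 CPM in Prdm16 libraries and 77.8 ± 1.40 CPM in Puro libraries (SD, n = 3 each; log2 fold change 0.26 ± 0.04 and edgeR adjusted p = 9.98e-05). Casp8, the initiator bound to death receptors, was the caspase that fell, to 57.4, 61.9 and 61.5 CPM in Prdm16 libraries, against 66.4, 67.3 and 69.9 CPM in Puro libraries (log2 fold change −0.17 ± 0.04). Casp1, the inflammasome caspase, had 40, 26 and 34 counts in Prdm16 libraries and 6, 1 and 9 in Puro libraries, a log2 fold change of 2.64 ± 0.40 under the same condition as for Bik. With single libraries left out it ran between 2.12 (without Puro replicate 2) and 3.22 (without Puro replicate 3).

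**Figure D3:**
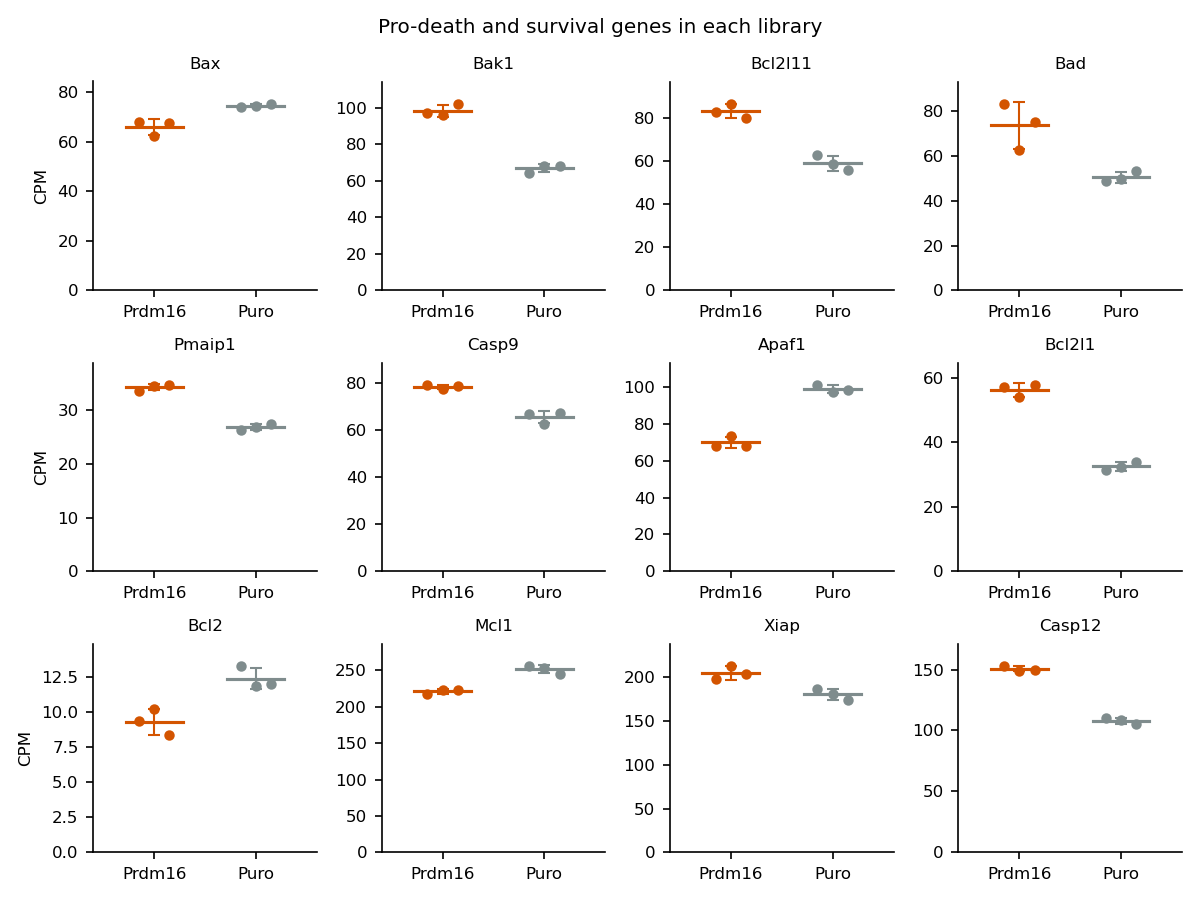
CPM (y axis, from 0) of 8 pro-death and 4 survival genes in each of the 3 Prdm16 and 3 Puro libraries, with points as libraries in replicate order, the long bar as the mean and the error bar as the SD. Bak1, Bcl2l11, Bad, Pmaip1, Casp9, Casp12, Bcl2l1 and Xiap are higher in all 3 Prdm16 libraries, and Bax, Apaf1, Bcl2 and Mcl1 lower.

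The survival genes did not move together. Bcl2l1, which encodes BCL-XL, rose to 57.1, 53.9 and 57.8 CPM in Prdm16 libraries, against 31.3, 32.3 and 34.0 CPM in Puro libraries. Its log2 fold change of 0.79 ± 0.05 (adjusted p = 4.78e-08) was the largest rise among the 41 members above the filter in both groups. Bcl2 fell to 9.40, 10.2 and 8.36 CPM in Prdm16 libraries, against 13.3, 11.9 and 12.0 CPM in Puro libraries (log2 fold change −0.41 ± 0.09, adjusted p = 0.00129). Mcl1, a short-lived BCL2 relative, had 217, 223 and 223 CPM in Prdm16 libraries and 256, 253 and 245 CPM in Puro libraries (log2 fold change −0.19 ± 0.03). Xiap, an inhibitor of caspases, averaged 205 ± 7.68 CPM in Prdm16 libraries and 181 ± 6.07 CPM in Puro libraries (SD, n = 3 each; log2 fold change 0.18 ± 0.04, edgeR adjusted p = 0.00171). Of the summed CPM per kb of these 4 genes, Bcl2l1 made up 12.7%, 11.7% and 12.6% in Prdm16 libraries and 6.64%, 6.94% and 7.50% in Puro libraries. The share of Mcl1 was 64.9%, 64.9% and 65.0% in Prdm16 libraries and 72.8%, 72.9% and 72.5% in Puro libraries. Mcl1 thus remained the most abundant of the 4 per kb in every library. The ratio of Bax to Bcl2l1 per kb was 3.36 to 3.47 in Prdm16 libraries and 6.44 to 6.88 in Puro libraries. The ratio of Bax to Bcl2 was 35.5 to 47.0 in Prdm16 libraries and 32.5 to 36.5 in Puro libraries, ranges that overlapped.

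Further genes of the p53 pathway, listed for their known roles, showed no common direction. Of 37 tested 16 rose (43.2%), 14 fell (37.8%) and 7 did not pass, with a median log2 fold change of 0.05. Over all genes tested 37.5% rose and 38.0% fell. Perp, a p53 target that is also a protein of epithelial desmosomes, had 1136, 986 and 1162 counts in Prdm16 libraries and 4, 7 and 7 in Puro libraries (log2 fold change 7.51 ± 0.12), and it too passed the filter through the Prdm16 libraries alone. The death receptor Tnfrsf10b rose to 77.7, 78.5 and 79.1 CPM in Prdm16 libraries, against 36.5, 34.5 and 35.7 CPM in Puro libraries (log2 fold change 1.14 ± 0.04, adjusted p = 3.43e-10). Trp53inp2, an autophagy protein related to Trp53inp1, rose with a log2 fold change of 1.09 ± 0.05, and Dram1, a p53-induced lysosomal protein, fell by 1.47 ± 0.05 on the log2 scale. Of 30 further genes of the apoptotic machinery that were tested, 14 rose (46.7%), 10 fell (33.3%) and 6 did not pass, with a median of 0.09. Cytochrome c, Cycs, rose to 62.5, 64.2 and 68.4 CPM in Prdm16 libraries, against 35.7, 35.2 and 31.6 CPM in Puro libraries (log2 fold change 0.93 ± 0.05). The mitochondrial protease Htra2 and the co-chaperone Bag3 fell, with log2 fold changes of −1.08 ± 0.04 and −1.05 ± 0.06.

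**Figure D4:**
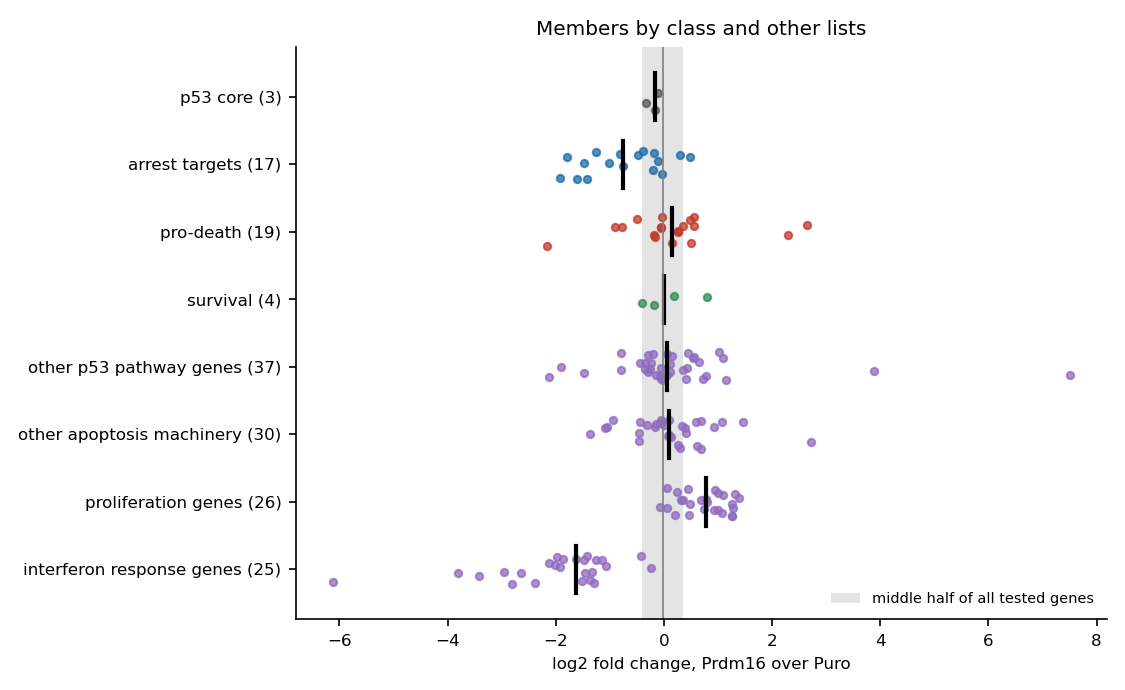
Log2 fold change (Prdm16 over Puro, x axis) of every tested gene in the 4 classes and in 4 other lists, with the number of genes in brackets; black bars are medians, the grey band spans the 25th to 75th percentile of all tested genes and the grey line is their median. The arrest targets have a median of −0.75, the proliferation genes of 0.79 and the interferon response genes of −1.63.

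Lists of genes tied to arrest or able to share inducers with the members were set beside them. Beside both lists, 37.5% of all genes tested rose and 38.0% fell. Of 26 proliferation genes 23 rose (88.5%), none fell and 3 did not pass, with a median log2 fold change of 0.79. Their summed level was 7862 to 8066 CPM in Prdm16 libraries and 4939 to 4989 CPM in Puro libraries. The mitotic cyclin Ccnb1 had 240, 242 and 228 CPM in Prdm16 libraries and 99.6, 100 and 98.8 CPM in Puro libraries (log2 fold change 1.25 ± 0.04, adjusted p = 1.19e-10). The topoisomerase Top2a, the cyclin Ccna2 and the proliferation marker Mki67 had log2 fold changes of 1.26 ± 0.04, 1.10 ± 0.03 and 1.38 ± 0.05. All 25 interferon response genes fell, with a median log2 fold change of −1.63 and a summed level of 3968 to 4152 CPM in Prdm16 libraries and 13281 to 13567 CPM in Puro libraries. Ifi44, Oas3, Ifit3 and Oas1a had log2 fold changes of −3.41 ± 0.04, −6.12 ± 0.09, −2.96 ± 0.04 and −2.81 ± 0.04. Reads of closely related Oas or Ifit genes may be shared, which leaves each value uncertain. Whether either list has a part in the levels of the arrest targets or caspases was not tested.

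Whole chromosomes differed between the groups, which touched a few genes. The median log2 fold change of tested genes was 0.39 on chromosome 19, which holds Fas and Bad, and −0.40 on chromosome 18, which holds Pmaip1. It was −0.38 on chromosome 15 (Rrm2b and Bik) and −0.20 on chromosome 3 (Zmat3 and Mcl1). On the chromosomes of the other members it lay between −0.11 and 0.12. With the median of each chromosome removed, Fas passed as lower (log2 fold change −0.44, adjusted p = 2.12e-05, range 2.12e-05 to 0.800 over 15 alternatives). Bad no longer passed (0.16, adjusted p = 0.121, range 5.34e-11 to 0.121 over 15 alternatives). Pmaip1 had 0.75 and Rrm2b −0.64 under that setting, both still called. Mcl1 was at 0.01 and no longer called and Zmat3 was called higher at 0.16. The falls of Cdkn1a, Eda2r, Plk2, Gadd45a, Gadd45g, Sesn2 and Gdf15 stayed between −1.23 and −2.17, and those of 13 arrest targets remained calls. What shifts these chromosomes was not tested.

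**Figure D5:**
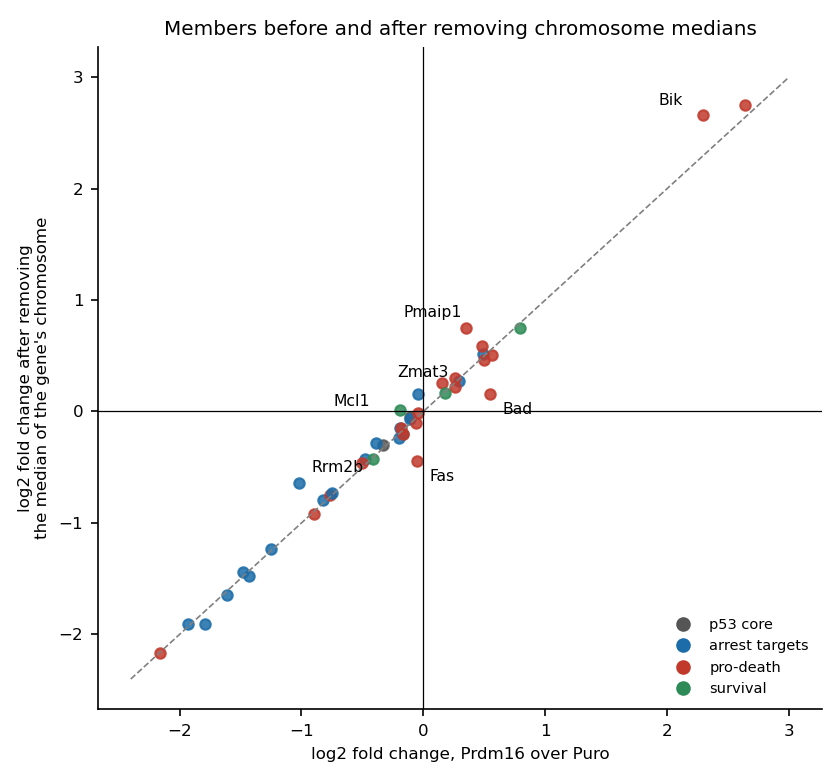
Log2 fold change (Prdm16 over Puro) of the 43 genes as tested (x axis) and after removing the median of each gene's chromosome (y axis), coloured by class; the dashed line marks equal values. Fas and Bad lie below the line, and Pmaip1, Rrm2b, Zmat3, Mcl1 and Bik above it, while most other genes lie on it.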

How the data were processed

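Polyadenylated RNA of 6 libraries was measured, 3 per group, after Trizol and PureLink extraction and TruSeq preparation per the labels' protocols. The authors deposited whole-number counts per gene symbol without normalization; the submitters' processing notes name STAR, featureCounts, Subread and mm9, and the sources used here give neither versions, strand setting nor the handling of shared reads, so overlapping genes may share reads. With edgeR 4.0.16 in R 4.3.3, filterByExpr kept 13805 of 24197 genes (removed genes held 0.0297% of counts), TMM scaled the libraries, and a two-sided quasi-likelihood test compared the groups, with Benjamini-Hochberg adjustment over all tested genes at 0.05. Each SE is the size of the log2 fold change divided by the square root of F. A chi-square per gene between replicates was 2.08 to 8.85, above a sampling noise of 1, so each library counted once; the fit was tested on simulated data. Exon lengths, overlaps and chromosomes came from GENCODE M21 (GRCm38) by symbol; windows before gene starts came from RefSeq. Alternatives were RLE and upper-quartile scaling, 2 other filters, DESeq2 1.42.0, limma-voom (limma 3.58.1), a replicate block, Prdm16 left out, chromosome medians removed and each library left out. All 43 members and, from 4 lists, the 4 genes with the smallest p were named, apart from 1 result that is not reported here; genes with overlapping exons and cell type markers were added, the progenitor sum without Col1a1 after seeing the data, and members and lists were chosen with earlier results of these data known.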

Additional observations from a re-analysis of the deposited data

How the results depend on the processing

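Of 643 values of single members under 15 alternatives, 630 kept their direction and side of the threshold, and 37 of 43 members did so under every alternative that could test them. The count of members called lower ran from 23 to 24 and that called higher from 12 to 14, and with the replicate block they were 23 and 14. Deviations of same-numbered libraries from their group means had correlations of −0.30, 0.15 and −0.11. Those of differently numbered libraries ran from −0.32 to 0.40, with 0.40 for Prdm16 replicate 1 and Puro replicate 3. What these libraries share was not tested. The same-numbered values gave no sign that the numbers pair the samples, but 3 libraries per group cannot exclude a pairing. The block ended 1 call, that of Trp53 (−0.11, edgeR adjusted p = 0.0552). Trp53 also lost its call without a low-count filter (−0.09), with chromosome medians removed (−0.05) and without Puro replicate 1 or 2 or Prdm16 replicate 2 or 3 (−0.08 to −0.11). With chromosome medians removed, Zmat3 had 0.16 and Mcl1 0.01, opposite in sign to their log2 fold changes in the report. Bbc3, not called in any setting, had 0.12 to 0.18 without Prdm16 replicate 2 or Puro replicate 3 and ran from −0.25 to 0.18 over all alternatives. A filter of at least 1 CPM in 3 libraries left Bik and Casp1 untested, so that 0 members rose by at least 2-fold. The counts within the arrest and pro-death classes, recomputed after seeing the data, each moved by at most 1, apart from the 2 pro-death genes that this filter removes. With chromosome medians removed, 9 pro-death genes were called higher and 7 lower, as Bad lost its call and Fas gained one, and 3 arrest targets were called higher. Depth limits Bik and Casp1, whose values rest on the fewest counts of all members. In a library 3 counts equalled 0.0852 to 0.104 CPM, and such limits cover counting error only.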

Other observations

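Immediate early genes, which respond within minutes to growth factors and stress and include the p53-linked Atf3, were also read. Of 13 tested 7 rose (53.8%), 2 fell (15.4%) and 4 did not pass, with a median log2 fold change of 0.46. Over all genes tested 37.5% rose and 38.0% fell. The nuclear receptor Nr4a1 had 89.5, 88.2 and 100 CPM in Prdm16 libraries and 10.2, 11.3 and 10.2 CPM in Puro libraries (log2 fold change 3.13 ± 0.07, adjusted p = 1.03e-11). Atf3, a stress-induced transcription factor, had 635, 558 and 648 counts in Prdm16 libraries and 274, 317 and 340 counts in Puro libraries (log2 fold change 1.01 ± 0.07), a rise where most arrest targets fell. Klf4, a p53-induced regulator of growth arrest, fell to 4.89, 3.97 and 4.82 CPM in Prdm16 libraries, against 11.8, 11.8 and 14.9 CPM in Puro libraries (log2 fold change −1.48 ± 0.12). These 3 genes were named after their values were seen.

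Among the further p53 pathway genes, Cyfip2, a cytoskeletal regulator and p53 target, had 228, 272 and 256 counts in Prdm16 libraries and 18, 21 and 13 in Puro libraries (log2 fold change 3.89 ± 0.21), and Trp53i11 had 26, 19 and 31 counts in Prdm16 libraries and 100, 113 and 125 in Puro libraries (log2 fold change −2.12 ± 0.17). In the apoptotic machinery the ligand Tnfsf10, or TRAIL, which binds the receptor Tnfrsf10b, had 114, 81 and 102 counts in Prdm16 libraries and 11, 11 and 24 in Puro libraries (log2 fold change 2.71 ± 0.23). The necroptosis kinase Ripk3 had a log2 fold change of 1.46 ± 0.10. All 4 were named after their values were seen.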
